A study of Mus musculus with 9 samples.

Results

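The genes described are those of the proteasome, with its regulatory caps, activators, inhibitor and assembly factors, in monocytes of a mouse model of neuromyelitis optica (NMO). The members were the symbols that begin with Psm, a letter from a to g and a number, with pseudogene symbols ending in -ps left out, and 50 of 23238 symbols in the count files met this rule. Of these 50, 48 passed the filter on low counts and were tested, while Psma8, a testis-expressed alpha subunit, and Psmb11, the beta subunit of the thymus, did not pass it. The rule also takes in Psmc3ip, whose product acts in meiotic recombination and is no proteasome subunit.

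The proteasome degrades proteins tagged with ubiquitin. Its 20S core is a barrel of alpha and beta rings with the proteolytic sites of Psmb5, Psmb6 and Psmb7 inside, and the 19S cap of Psmc ATPases and Psmd subunits binds, unfolds and feeds the substrate. Interferon and inflammatory signals replace the catalytic subunits by Psmb8, Psmb9 and Psmb10, which forms the immunoproteasome, and white blood cells carry it in their resting state, where it makes peptides for presentation on MHC class I. The activators Psme1 and Psme2 (PA28 alpha and beta), Psme3 (PA28 gamma) and Psme4 (PA200) cap the core in place of 19S.

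The libraries were QuantSeq 3ʹ libraries, which read the 3ʹ ends of polyadenylated transcripts, in 3 groups of 3. Nor_Bl_mono were blood monocytes of normal mice, and NMO_Bl_mono and NMO_Br_mono were blood and brain monocytes of mice that had received NMO-IgG (autoantibody against aquaporin 4) together with human complement by injection into the striatum of 1 hemisphere. All mice were wild type by label, and the study's methods give female C57BL/6N mice aged 12 weeks for the model. Each library came from a pool of 5 mice on day 1, sorted as CD45+ CD11b+ P2ry12- Ly6C+ Ly6G- cells. No injection is given for the normal mice, and no injected control without NMO-IgG is among these 9 libraries, so the injection and the antibody cannot be told apart, and brain and blood cells also differ in how they were isolated.

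Total counts ranged from 7584649 to 10419647 per library, and between 28.4% and 43.6% of them fell on the ribosomal RNA symbol Rn45s. NMO_Bl_mono held both the library with the fewest genes detected (replicate 3, 4567) and the one with the most (replicate 1, 11556). Levels are given in CPM, counts scaled to a common library size after TMM normalisation, and replicates 1, 2 and 3 are listed in turn. The 8 monocyte markers summed to 4011 to 7318 CPM, and of these Cx3cr1 alone was at as little as 1 count in a library, NMO_Bl_mono replicate 3. They did not move together, since Ly6c2 and Ptprc were lower (59.4 to 437 CPM against 462 to 933 CPM for Ly6c2) and Ccr2 and Itgam higher (786 to 1297 CPM against 89.8 to 691 CPM for Ccr2) in every brain library than in every blood library, with adjusted p values of 0.426 or more by edgeR. Markers of other cells did not fully follow the sort label. The summed level of 8 microglia markers was 0 to 71.2 CPM in the blood libraries and 180.4 to 572 CPM in NMO_Br_mono. There Fcrls was present in all 3 libraries and Tmem119 was at 0 in 1. P2ry12, for which the cells were negative by the sort label, was at 23.7, 69.7 and 9.95 CPM in NMO_Br_mono. In the blood libraries it was at 0 to 43.4 CPM, so brain and blood overlapped for it. The summed level of 7 NK cell markers was 1952 to 3365 CPM in the blood libraries and 21.3 to 289 CPM in NMO_Br_mono, that of 6 platelet markers 416 to 2853 CPM in blood and 0 to 39.4 CPM in brain, that of 6 erythroid markers 898 to 5411 CPM in blood and 1.05 to 402 CPM in brain, and that of 5 neutrophil markers 61.8 to 216 CPM in blood and 229.9 to 1511 CPM in brain. Of the neutrophil markers S100a8 and S100a9 made up nearly all of the brain sum, while Retnlg went the other way, at 0 in all 3 brain libraries and at 0 to 125 CPM in blood. Markers of B cells, T cells and brain tissue each summed to at most 88.2 CPM in any library, with Aqp4 at 0 in all 9. The part of these cells in the values below was not tested, and in bulk samples fewer cells of a type and less RNA per cell cannot be told apart.

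The proteasome genes together summed to 2393 to 4636 CPM in a library. Tags of 3ʹ ends do not scale with transcript length, so levels are summed and compared between genes without a length correction. The sum was 3335, 3293 and 3669 CPM in Nor_Bl_mono, 3795, 3776 and 2393 CPM in NMO_Bl_mono, and 4636, 3726 and 3527 CPM in NMO_Br_mono. NMO_Bl_mono replicate 3 was the lowest on this scale and NMO_Br_mono replicate 1 the highest. The other 7 libraries lay between 3293 and 3795 CPM. The order depends on the TMM factor, which was 1.46 in NMO_Bl_mono replicate 3 and 0.80 to 1.08 elsewhere. By raw counts the members held 26328 of 7584649 there, a larger part than the 23186 of 8728729 in Nor_Bl_mono replicate 1. The part in NMO_Br_mono replicate 2 (39171 of 9751839) was then above that in replicate 1 (40996 of 10419647). By structure, the 8 alpha subunits summed to 574 to 1139 CPM and the 8 members in the lid of the 19S cap to 397 to 803 CPM. The 7 assembly factors were low. The sum of the 4 factors Psmg1 to Psmg4 was 0 to 107 CPM and that of the 3 factors of the 19S base, Psmd5, Psmd9 and Psmd10, was 0 to 60.8 CPM.

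**Figure D1:**
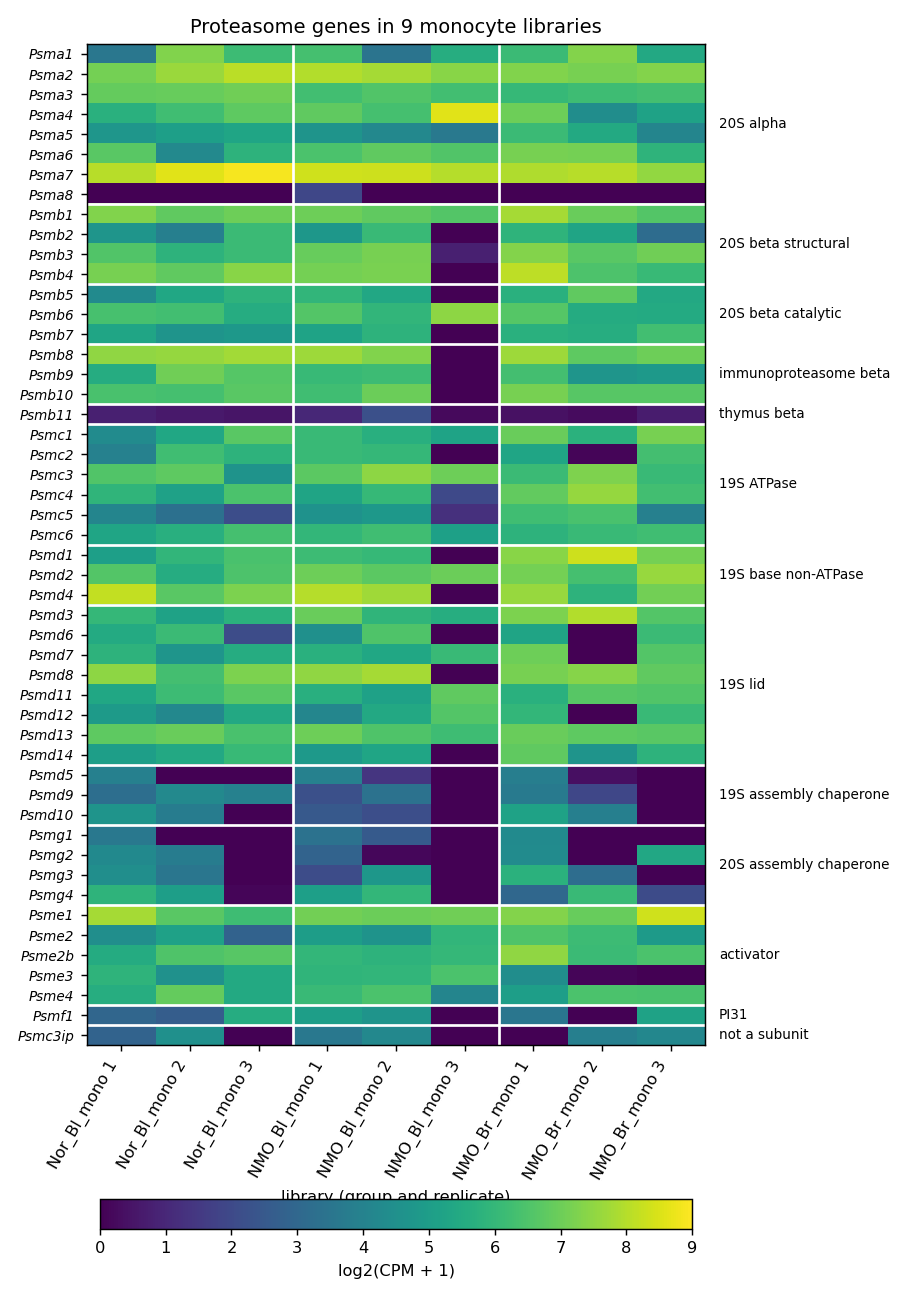
Levels of the 50 proteasome genes (rows, grouped by role) in the 9 libraries (columns), as log2(CPM + 1). The column of NMO_Bl_mono replicate 3 holds 24 genes with 3 counts or fewer beside genes at full level, such as Psma4 and Psmb6, and the rows of assembly factors are dark in several libraries.

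NMO_Bl_mono replicate 3 stood apart from its group. In it 24 of the 50 genes had 3 counts or fewer, and 23 of them had none. Of the 26 proteasome genes that reached 50 CPM in replicates 1 and 2 of the group, 8 (30.8%) were at 3 counts or fewer in this library, beside 562 of 2522 genes of any kind (22.3%). These 8 were Psmb4, Psmb8, Psmb9, Psmb10, Psmc2, Psmd1, Psmd4 and Psmd8. Within the same library Psma4 stood at 386 CPM and Psmb6 at 178 CPM, each the highest of its gene over the 9 libraries. NMO_Br_mono replicate 2 had 11 genes at 3 counts or fewer, and of the 26 that reached 50 CPM in replicates 1 and 3 Psmd7 and Psmd12 were among them (7.69%, beside 8.26% of genes of any kind). No proteasome gene met this description in the other 7 libraries. Leaving NMO_Bl_mono replicate 3 out turned the sign of the log2 fold change for 9 of the 48 genes tested in brain over NMO blood and for 16 in NMO over normal blood. It turned the sign or moved the value by over 1.5-fold for 28 and 36 genes in these comparisons, and for 1 gene, with no sign turned, in brain over normal blood. Values without it stand beside those of the main named genes and groups that it moved.

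**Figure D2:**
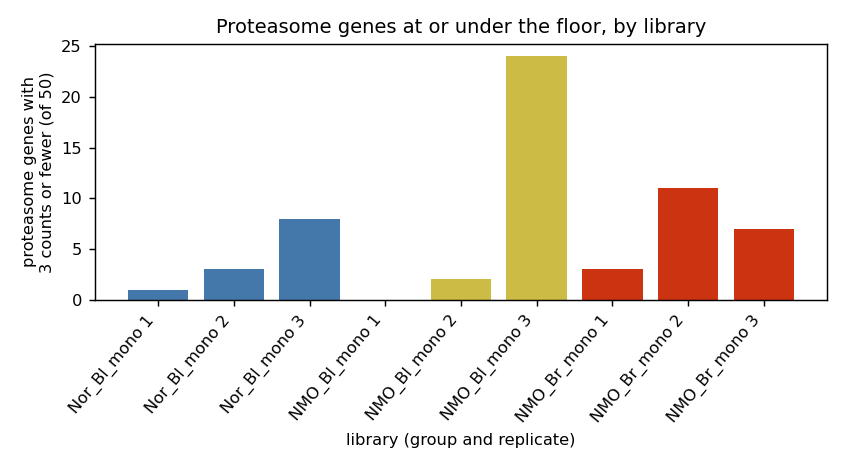
Number of the 50 proteasome genes with 3 counts or fewer (vertical axis) in each library (horizontal axis), with bars coloured by group. NMO_Bl_mono replicate 3 has 24, NMO_Br_mono replicate 2 has 11, and the other libraries have 0 to 8.

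Between brain and blood monocytes of NMO mice no proteasome gene passed the test. In NMO_Br_mono against NMO_Bl_mono 0 of 48 genes had an adjusted p under 0.05 in edgeR's quasi-likelihood test (0.247% of all 10107 genes tested did), and 0 of 48 passed an unadjusted p under 0.05 with a 1.2-fold change (5.32% of all genes did). DESeq2 and limma-voom also gave 0 adjusted calls among the members, here and in the comparisons that follow. Over all 10107 genes DESeq2 made 336 adjusted calls here and limma-voom 51. In NMO over normal blood they made 69 and 0, and in brain over normal blood 366 and 33. By edgeR the lowest adjusted p was 0.811, for Psma4. Of the 48 genes, 33 had a fitted value above 0 and 15 below it, where 51.4% of all genes were above 0. The median log2 fold change was 0.27, beside 0.05 over all genes, and the standard error of a single gene had a median of 1.36. The fitted change lay within 1 standard error of 0 for 39 genes and within 2 for all 48. Intervals this wide hold changes of several fold either way, so a gene that did not pass the test is not shown to be equal between the groups. Without NMO_Bl_mono replicate 3 the median was 0.03, with 26 of 48 genes above 0, beside -0.16 over all genes.

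The blood monocytes of NMO and normal mice were compared in the same fit. In NMO_Bl_mono against Nor_Bl_mono 0 of 48 genes passed an adjusted p under 0.05, as was so for 0% of all genes by edgeR, and 0 of 48 passed the unadjusted threshold (0.712% of all genes). The lowest adjusted p was 1. Values above 0 were found for 18 of 48 genes, where 42.4% of all genes were above 0. The median log2 fold change was -0.09, beside -0.16 over all genes. Without NMO_Bl_mono replicate 3 this median was 0.21, beside 0.07 over all genes, with 32 of 48 genes above 0. In NMO_Br_mono against Nor_Bl_mono 0 of 48 genes passed the adjusted threshold (0.247% of all genes) and 1, the lid subunit Psmd3, passed the unadjusted one (5.82% of all genes). There the median was 0.21, beside -0.12 over all genes, with 31 of 48 above 0, where 46.3% of all genes were. The comparisons share libraries pairwise, so their values are not independent of each other.

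**Figure D3:**
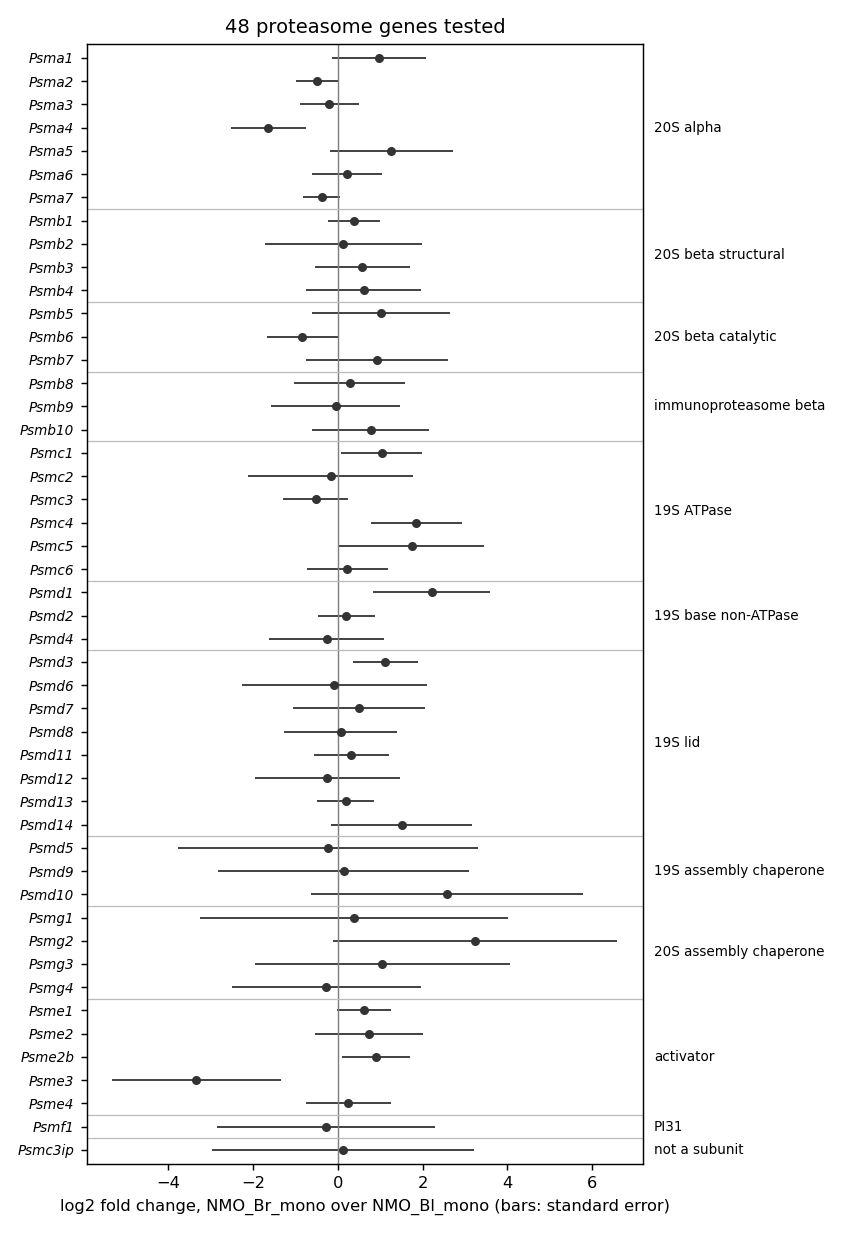
Log2 fold change of the 48 tested proteasome genes between NMO_Br_mono and NMO_Bl_mono (horizontal axis, edgeR), with bars of 1 standard error and genes grouped by role (vertical axis). For 39 genes the bar crosses 0, and Psme3 has the lowest and Psmg2 the highest value, both with wide bars.

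A plainer description is whether the libraries of 2 groups overlap. All 3 NMO_Br_mono libraries lay above all 3 NMO_Bl_mono libraries for 3 of 48 genes, Psmc4, Psmd1 and Psme2b (6.3% of all genes did so), and below them for 2, Psma2 and Psme3 (6.05% of all genes). NMO_Bl_mono lay above Nor_Bl_mono for Psmd2 and Psme3 (2.34% of all genes) and below it for Psma3 and Psma5 (4.45%). NMO_Br_mono lay above Nor_Bl_mono for 4 genes, Psmb3, Psmb7, Psmd1 and Psmd3 (6.07%), and below it for 2, Psma3 and Psme3 (9.37%). Against all 6 blood libraries together, Psmd1 was the only member higher in every brain library (3.57% of all genes were) and Psme3 the only member lower in every one (3.13%). As shares of the 48 these counts were 2.08% to 8.33%, of the order of the shares over all genes. Psma3, Psma5 and Psme2b are named for this overlap, after their values were seen, as are Psmd13, Psma7 and Psmd6 for their spread further on, and the other genes follow the rule given with the methods.

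Psmd1 encodes the largest scaffold subunit of the 19S base, to which ubiquitin receptors attach (chr1:86064387-86139151, plus strand, GRCm38). Its level was 32.5, 59.7 and 84.2 CPM in Nor_Bl_mono, 71.2, 63.8 and 0 CPM in NMO_Bl_mono and 169.98, 318 and 138 CPM in NMO_Br_mono. Every brain library was above every blood library, with the lowest brain value at 138 and the highest blood value at 84.2 CPM, and the means were 209 ± 95.9 CPM in brain, 44.97 ± 39.1 CPM in NMO blood and 58.8 ± 25.9 CPM in normal blood (SD, n = 3 for this and all later means). The log2 fold change was 2.21 ± 1.39 (SE) over NMO_Bl_mono and 1.83 ± 1.37 over Nor_Bl_mono, with adjusted p values of 0.977 and 1 by edgeR. NMO_Bl_mono replicate 3 held no count of Psmd1, and without that library the value over NMO_Bl_mono was 1.64 ± 0.64 (SE) with an unadjusted p of 0.0243 and an adjusted p of 0.677. A limit of this count is that 70.9% of the windows of 75 bases at the ends of Psmd1 transcripts also lie in Gm21972, a gene of the same locus and strand that the count files do not list.

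Psme3 encodes PA28 gamma, the nuclear activator of the 20S core that acts without ubiquitin (chr11:101316213-101323537, plus strand). Its level was 57.1, 22.6 and 43.2 CPM in Nor_Bl_mono, 57.7, 59.4 and 87.3 CPM in NMO_Bl_mono and 20.1, 0.0951 and 0 CPM in NMO_Br_mono. In brain it was near 0 in replicates 2 and 3, with 1 and 0 counts, and the remaining brain library lay just under the lowest blood library. The NMO blood libraries were all above the normal ones, though by a narrow margin between 57.7 and 57.1 CPM. Its fitted log2 fold change was -3.34 ± 1.99 (SE) in brain over NMO blood (adjusted p = 0.911 by edgeR), -2.60 ± 1.92 in brain over normal blood and 0.73 ± 1.82 in NMO over normal blood, with adjusted p values of 1 and 1. Without NMO_Bl_mono replicate 3 the first of these was -3.11 ± 2.01 (SE), with an adjusted p of 0.752. No window of 75 bases at the ends of Psme3 transcripts was shared with another gene.

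**Figure D4:**
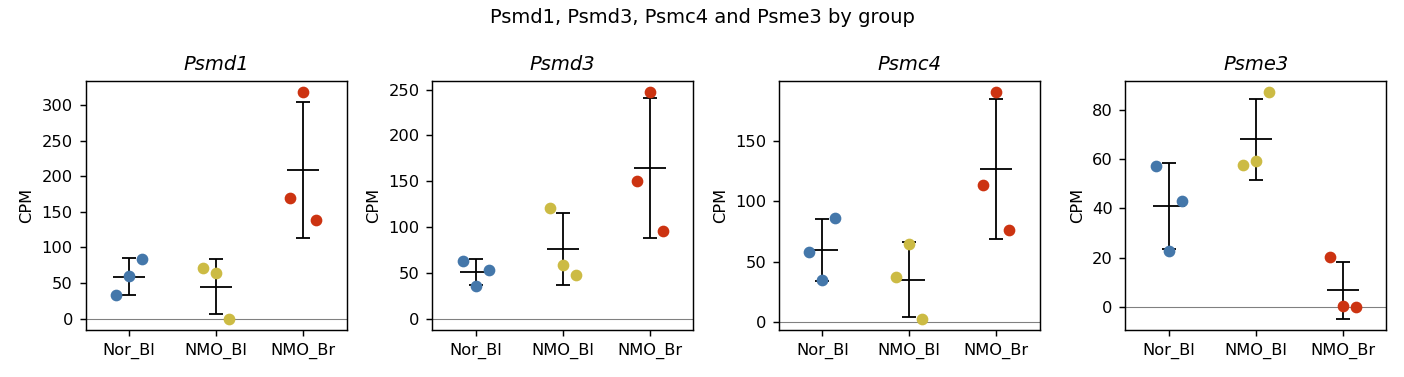
Levels in CPM (vertical axes) of Psmd1, Psmd3, Psmc4 and Psme3 in the 3 libraries of each group (points), with the mean (horizontal line) and SD (bars). The brain libraries lie above all blood libraries for Psmd1 and below them for Psme3, and overlap with at least 1 blood group for Psmd3 and Psmc4.

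Among the ATPases, which form the ring that unfolds substrates, Psmc4 and Psmc1 had the lowest p values in brain against NMO blood. Psmc4 (chr7:28041707-28050101, minus strand) stood at 57.8, 34.6 and 85.7 CPM in Nor_Bl_mono, 37.5, 64.6 and 3.0 CPM in NMO_Bl_mono and 113, 189.9 and 76.5 CPM in NMO_Br_mono. All brain libraries exceeded the NMO blood libraries, of which replicate 3 was far below its mates, while replicate 3 of brain lay below replicate 3 of normal blood. Its log2 fold change was 1.85 ± 1.07 (SE) over NMO_Bl_mono (adjusted p = 0.874 by edgeR) and 1.09 ± 1.05 over Nor_Bl_mono (adjusted p = 1), and the first became 1.32 ± 0.75 without NMO_Bl_mono replicate 3. For Psmc1 the levels were 19.1, 39.8 and 104 CPM in Nor_Bl_mono, 67.8, 50.4 and 36.2 CPM in NMO_Bl_mono and 123, 53.4 and 141 CPM in NMO_Br_mono. These overlapped in all comparisons, and the log2 fold change of brain over NMO blood was 1.04 ± 0.95 (SE). Psmc2 was at 67.6, 62.9 and 0 CPM in NMO_Bl_mono and at 38.3, 0.0951 and 78.1 CPM in NMO_Br_mono, so that 1 library of each group was at 1 count or none. Over the 6 ATPases, 4 had values above 0 in brain against NMO blood, with a median log2 fold change of 0.63, and 5 in brain against normal blood, with a median of 0.66, and none passed the test. The first was 3, with a median of 0.41, without NMO_Bl_mono replicate 3.

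Of the 2 other Psmd members placed in the 19S base, Psmd2 is a scaffold like Psmd1 and Psmd4 is a receptor for ubiquitin chains. Psmd2 stood at 96.1, 47.1 and 88.1 CPM in Nor_Bl_mono, 127, 105 and 125 CPM in NMO_Bl_mono and 137, 79.4 and 195 CPM in NMO_Br_mono. The NMO blood libraries lay close together and above all normal libraries, at a mean of 119 ± 12.3 CPM against 77.1 ± 26.3 CPM, and the brain libraries spread on both sides of them. For Psmd2 the log2 fold change was 0.63 ± 0.68 (SE) in NMO over normal blood (adjusted p = 1 by edgeR) and 0.20 ± 0.68 in brain over NMO blood. Psmd4 was at 288, 103 and 147 CPM in Nor_Bl_mono, 254, 212 and 0 CPM in NMO_Bl_mono and 196, 55.2 and 136 CPM in NMO_Br_mono. All groups overlapped for it, and its zero in NMO_Bl_mono replicate 3 gave it the widest spread of the tested members in that group.

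The 19S lid removes ubiquitin from substrates before they are degraded. Psmd3, a structural lid subunit (chr11:98682554-98695979, plus strand), was the member with the lowest unadjusted p over the 3 comparisons. Its level was 63.01, 35.3 and 53.2 CPM in Nor_Bl_mono, 121, 58.9 and 47.8 CPM in NMO_Bl_mono and 150.2, 247 and 95.8 CPM in NMO_Br_mono. The brain libraries were all above the normal blood libraries, and 1 NMO blood library reached into their range. The log2 fold change was 1.70 ± 0.78 (SE) over Nor_Bl_mono, with an unadjusted p of 0.0461 and an adjusted p of 0.708 by edgeR, and 1.12 ± 0.77 over NMO_Bl_mono, with an adjusted p of 1. The unadjusted call was lost when any single library other than NMO_Bl_mono replicate 3 or NMO_Br_mono replicate 3 was left out.

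Psmd14, the deubiquitinase of the lid, stood at 32.4, 41.9 and 66.5 CPM in Nor_Bl_mono, 28.4, 37.98 and 0 CPM in NMO_Bl_mono and 110.4, 24.1 and 54.9 CPM in NMO_Br_mono. The groups overlapped, and its log2 fold change in brain over NMO blood was 1.51 ± 1.66 (SE), and 0.94 without NMO_Bl_mono replicate 3. Psmd7, the partner of Psmd14, was at 129, 0 and 96.1 CPM in NMO_Br_mono and Psmd12, a structural subunit, at 61.7, 0 and 67.95 CPM there, so both were at 0 in replicate 2 alone. Psmd8, another structural subunit, was at 181, 219.7 and 0 CPM in NMO_Bl_mono and at 78.3 to 176 CPM in the other 6 libraries. Over the 8 lid members, 6 had values above 0 in brain against NMO blood (median 0.25), 3 in NMO against normal blood (median -0.03) and 7 in brain against normal blood (median 0.31). The first was 6 (median 0.65) and the second 5 (median 0.09) without NMO_Bl_mono replicate 3.

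The alpha subunits form the outer rings of the core and its gate. Psma4 stood at 51.1, 75.5 and 109 CPM in Nor_Bl_mono, 111, 81.2 and 386 CPM in NMO_Bl_mono and 129.7, 20.4 and 35.7 CPM in NMO_Br_mono. NMO_Bl_mono replicate 3 was the highest of the 9 libraries for Psma4 and brain replicates 2 and 3 were the lowest. Its log2 fold change in brain over NMO blood was -1.64 ± 0.88 (SE), the lowest unadjusted p of the members there (0.0853), with an adjusted p of 0.811 by edgeR, and it was -0.62 ± 0.84 (SE) without NMO_Bl_mono replicate 3. Psma2 was at 139, 197 and 269 CPM in Nor_Bl_mono, 249.9, 220.2 and 169.5 CPM in NMO_Bl_mono and 154, 143 and 161 CPM in NMO_Br_mono. The brain libraries of Psma2 were close together and just below those of NMO blood, and the log2 fold change was -0.48 ± 0.51 (SE), with an adjusted p of 1.

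Psma3 was the steadiest member, with a pooled SD within groups of 0.13 on the log2(CPM + 1) scale. It stood at 117, 120.5 and 132 CPM in Nor_Bl_mono, 75.9, 93.8 and 76.3 CPM in NMO_Bl_mono and 65.03, 72.2 and 77.5 CPM in NMO_Br_mono. All normal blood libraries lay above all NMO libraries of blood and brain, and the 2 NMO groups overlapped. For Psma3 the log2 fold change was -0.58 ± 0.71 (SE) in NMO over normal blood and -0.78 ± 0.71 in brain over normal blood, with adjusted p values of 1 and 1 by edgeR, whose standard error for this gene draws on the spread shared by genes of similar level. Of the windows at its transcript ends, 33.9% also occur in transcripts named Gm13835, Gm5406 and Gm4742 elsewhere in the genome, which the count files do not list. Psma5 stood at 25.5, 33.1 and 38.01 CPM in Nor_Bl_mono, 24.2, 17.5 and 11.5 CPM in NMO_Bl_mono and 69.1, 42.8 and 16.02 CPM in NMO_Br_mono. The NMO blood libraries of Psma5 were below the normal ones, the brain libraries spanned both, and the log2 fold change of NMO over normal blood was -0.86 ± 1.44 (SE). Of the windows at the ends of Psma5, 32.2% also occur in Gm12989 and Gm8394, likewise elsewhere in the genome and not in the count files. Over the 7 alpha subunits tested, the median log2 fold change was -0.20 in brain over NMO blood, with 3 above 0, and -0.34 in brain over normal blood, with 3 above 0.

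Of the beta subunits without a proteolytic site, Psmb1 and Psmb3 had the lowest p values in brain against NMO blood. Psmb1 was at 156, 109.5 and 129 CPM in Nor_Bl_mono, 129, 111 and 94.9 CPM in NMO_Bl_mono and 218, 123 and 95.5 CPM in NMO_Br_mono. Its groups overlapped throughout, at a log2 fold change of 0.38 ± 0.62 (SE) in brain over NMO blood. Psmb3 was at 94.2, 55.5 and 68.9 CPM in Nor_Bl_mono, 120.5, 141 and 0.727 CPM in NMO_Bl_mono and 158, 103 and 131 CPM in NMO_Br_mono. The brain libraries were above all normal blood libraries, NMO_Bl_mono replicate 3 was near 0, and the log2 fold change was 0.84 ± 1.13 (SE) over normal blood (adjusted p = 1 by edgeR) and 0.58 ± 1.13 over NMO blood, or 0.01 ± 0.55 without that library. Psmb4 was at 139, 145 and 0 CPM in NMO_Bl_mono and at 65.6 to 277 CPM elsewhere.

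The immunoproteasome subunits and the subunits they replace were examined pair by pair. Psmb8 (chr17:34197721-34201454, plus strand) and Psmb9 (chr17:34181987-34187764, minus strand) lie close together in the MHC region, while Psmb10 lies elsewhere (chr8:105935735-105938444, minus strand). The promoter of Psmb9 is shown because Psmb9 was at 0 in a library in which Tap1, the gene that shares it, was not, and those of Psmb8 and Psmb5 because these subunits take each other's place in the core. The windows run from 250 bases before to 50 after the start of the RefSeq gene in GRCm38.p6. Capitals mark TGACNNNGC, the core of the antioxidant response element, in Psmb5. It was searched on both strands, and the windows of Psmb8 and Psmb9 did not hold it.
Psmb8 promoter (chr17:34197945-34198244, plus strand): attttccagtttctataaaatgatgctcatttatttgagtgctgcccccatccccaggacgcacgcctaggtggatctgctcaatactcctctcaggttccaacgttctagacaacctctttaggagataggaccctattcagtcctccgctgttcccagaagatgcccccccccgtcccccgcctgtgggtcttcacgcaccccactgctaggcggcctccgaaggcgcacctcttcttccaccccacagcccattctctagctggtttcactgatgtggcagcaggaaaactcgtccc
Psmb9 promoter (chr17:34187281-34187580, minus strand): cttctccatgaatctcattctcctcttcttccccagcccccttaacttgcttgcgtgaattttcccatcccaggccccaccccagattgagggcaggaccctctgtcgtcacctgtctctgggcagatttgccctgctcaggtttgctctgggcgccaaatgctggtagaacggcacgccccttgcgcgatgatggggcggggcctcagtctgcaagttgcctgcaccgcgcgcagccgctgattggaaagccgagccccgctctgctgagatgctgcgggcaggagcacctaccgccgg
Psmb5 promoter (chr14:54617946-54618245, minus strand): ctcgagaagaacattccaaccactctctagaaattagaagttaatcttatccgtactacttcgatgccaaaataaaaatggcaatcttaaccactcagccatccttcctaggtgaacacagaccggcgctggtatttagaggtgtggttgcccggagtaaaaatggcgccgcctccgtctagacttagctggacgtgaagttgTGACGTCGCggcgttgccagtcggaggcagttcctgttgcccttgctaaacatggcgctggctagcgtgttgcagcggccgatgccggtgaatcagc
TGACNNNGC was in the windows of 6 of the 42 members in the table (Psmb5, Psmb6, Psmc6, Psmd9, Psmd12 and Psme4) and in 12.4% of all 32851 windows. The other pattern searched on both strands, that of interferon-stimulated response elements (a pair of GAAA blocks with any 2 bases between them), was in those of 5 (Psmb3, Psmd4, Psmd9, Psme1 and Psmg4) and in 3.44% of all windows, and Psmd9 alone held both patterns. A match describes letters, not a used site.

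Psmb9 and Tap1, a subunit of the peptide transporter of class I loading, start 226 bases apart on opposite strands, and 275 of the 300 bases of their windows are the same. Psmb9 stood at 46.6, 132 and 97.3 CPM in Nor_Bl_mono, 66.1, 70.2 and 0 CPM in NMO_Bl_mono and 79.3, 24.8 and 28.1 CPM in NMO_Br_mono. Tap1 stood at 84.9, 59.7 and 118 CPM in Nor_Bl_mono, 88.5, 109 and 117 CPM in NMO_Bl_mono and 116, 81.99 and 52.2 CPM in NMO_Br_mono, named here after its values were seen. In NMO_Bl_mono replicate 3 Psmb9 was thus at 0 while Tap1 was at its second highest level of the 9 libraries. Psmb9 had a log2 fold change of -0.04 ± 1.52 (SE) in brain over NMO blood, -1.02 ± 1.54 in NMO over normal blood and -1.06 ± 1.54 in brain over normal blood, with adjusted p values of 1 in all 3 by edgeR. Without NMO_Bl_mono replicate 3 the second was -0.43 ± 0.84 (SE) and the first was -0.62 ± 0.83.

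Psmb8 carries the chymotrypsin-like site of the immunoproteasome. Its level was 183, 190.5 and 216 CPM in Nor_Bl_mono, 206, 154 and 0 CPM in NMO_Bl_mono and 202, 109 and 127 CPM in NMO_Br_mono. The normal libraries were close together, 2 of 3 brain libraries lay below all of them, and NMO_Bl_mono replicate 3 held no count. The log2 fold change was 0.28 ± 1.31 (SE) in brain over NMO blood with all libraries and -0.29 ± 0.45 without NMO_Bl_mono replicate 3, so this library turned its sign. In NMO over normal blood it was -0.71 ± 1.31 with all libraries and -0.12 ± 0.45 (SE) without that library. Psmb10 stood at 84.6, 79.9 and 102 CPM in Nor_Bl_mono, 75.2, 126 and 0 CPM in NMO_Bl_mono and 142, 101 and 101 CPM in NMO_Br_mono. Brain and normal blood overlapped by a narrow margin for Psmb10, and its log2 fold change was 0.37 ± 1.37 (SE) over normal blood and 0.77 ± 1.38 over NMO blood, or 0.20 ± 0.57 (SE) over NMO blood without NMO_Bl_mono replicate 3. In NMO over normal blood it was -0.40 ± 1.37 (SE) and, without that library, 0.19 ± 0.57 (SE), so its sign turned. Adjusted p values were 1 for both genes in all 3 comparisons by edgeR.

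The constitutive counterpart of Psmb8 is Psmb5 (chymotrypsin-like), which stood at 18.8, 40.3 and 55.2 CPM in Nor_Bl_mono, 59.2, 41.1 and 0 CPM in NMO_Bl_mono and 51.1, 111 and 42.2 CPM in NMO_Br_mono. That of Psmb9 is Psmb6 (caspase-like), at 82.1, 77.4 and 46.4 CPM in Nor_Bl_mono, 96.2, 59.9 and 178 CPM in NMO_Bl_mono and 97.03, 45.3 and 44.6 CPM in NMO_Br_mono. That of Psmb10 is Psmb7 (trypsin-like), at 37.98, 24.2 and 27.1 CPM in Nor_Bl_mono, 36.6, 56.04 and 0 CPM in NMO_Bl_mono and 51.00, 48.3 and 76.3 CPM in NMO_Br_mono. In NMO_Bl_mono replicate 3 Psmb5 and Psmb7 were at 0 with the 3 immunoproteasome genes, and Psmb6 alone of the 6 carried counts. The brain libraries of Psmb7 were above those of normal blood, and its log2 fold change was 0.98 ± 1.68 (SE). That of Psmb5 was 0.84 ± 1.63 and that of Psmb6 -0.14 ± 0.83 in the same comparison, and adjusted p values were 1 for all 3 genes by edgeR. The ends of Psmb7 overlap those of Nek6 on the opposite strand (78.2% of windows), and 48.9% of the windows of Psmb5 occur in Gm3375, which lies elsewhere in the genome and is not in the count files. Whether strand was used in counting is not given in the sources used here.

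**Figure D5:**
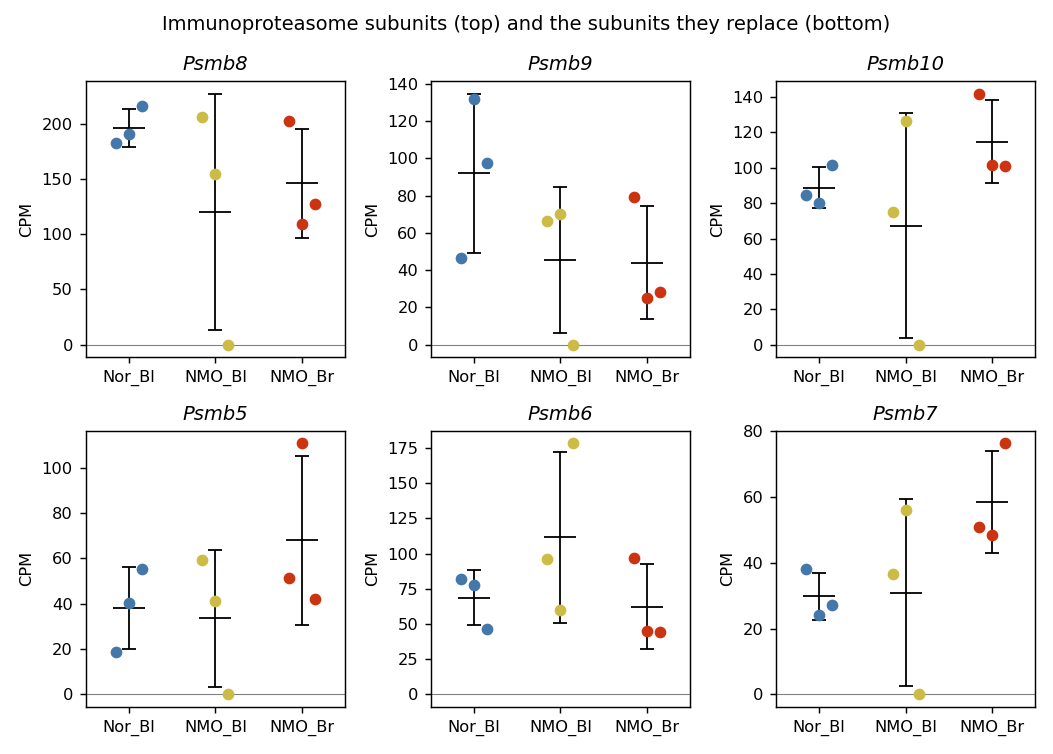
Levels in CPM (vertical axes) of the immunoproteasome genes Psmb8, Psmb9 and Psmb10 (top) and of Psmb5, Psmb6 and Psmb7 (bottom) in the 3 libraries of each group (points), with the mean (horizontal line) and SD (bars). In NMO_Bl_mono 1 library is at 0 for 5 of the 6 genes and is the highest for Psmb6.

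The share of the tags of these 6 genes that came from the 3 immunoproteasome genes was also taken. In normal blood it was 69.3%, 73.9% and 76.3%, in NMO blood 64.4%, 69.1% and 0%, and in NMO brain 68.0%, 53.5% and 61.1%. The 3 brain shares and both nonzero NMO blood shares lay below the 3 normal shares, with means of 73.2 ± 3.56% in normal blood, 66.7% over both nonzero NMO blood libraries (44.5 ± 38.6% over all 3) and 60.9 ± 7.25% in brain (SD). The exact Clopper-Pearson 95% interval of a single share was 67.7% to 70.9% in Nor_Bl_mono replicate 1 and 52.1% to 55.0% in NMO_Br_mono replicate 2. It was 66.8% to 69.2% in NMO_Br_mono replicate 1 and 67.7% to 70.4% in NMO_Bl_mono replicate 2. Both of these overlap the interval of Nor_Bl_mono replicate 1, so the order of the groups is not resolved there even by counting error. In NMO_Bl_mono replicate 3 the share was 0 of 1962 tags, with an upper bound of 0.188% by the same interval and of 0.153% by the limit of 3 counts. Such intervals and limits cover counting error only, since reads after PCR are not independent molecules, and no test was made on the share. By pair, Psmb8 held 79.6% to 90.7% of the tags of Psmb8 and Psmb5 in normal blood and 49.6% to 79.8% in brain. Psmb9 held 36.2% to 67.7% of its pair in normal blood and 35.4% to 44.96% in brain, and Psmb10 69.0% to 79.0% and 57.0% to 73.6%. The ranges of normal blood and brain overlapped in all 3 pairs.

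Psme1 and Psme2 encode PA28 alpha and beta, which form a ring together and are induced by interferon gamma. Psme2 has a copy without introns, Psme2b, on another chromosome, and their transcripts were compared to see whether reads could tell them apart. Over 794 aligned bases 789 were identical (99.4%), and the last 221 bases did not differ. The last 3 differences, in capitals, fall in this stretch of coding sequence from the GENCODE M21 transcripts.
Psme2 (gene at chr14:55587441-55591113, minus strand): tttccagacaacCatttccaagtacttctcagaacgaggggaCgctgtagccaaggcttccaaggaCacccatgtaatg
Psme2b (gene at chr11:48945354-48946190, minus strand): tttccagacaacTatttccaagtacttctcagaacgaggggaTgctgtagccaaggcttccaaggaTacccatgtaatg
Since reads from the stretch behind these differences fit both genes and the authors counted multiple alignments, the split of counts between both genes is uncertain. Psme2 stood at 20.9, 34.2 and 6.03 CPM in Nor_Bl_mono, 30.95, 23.9 and 60.3 CPM in NMO_Bl_mono and 91.3, 71.05 and 28.9 CPM in NMO_Br_mono. Psme2b stood at 45.9, 90.2 and 101 CPM in Nor_Bl_mono, 61.5, 56.04 and 62.9 CPM in NMO_Bl_mono and 179, 69.3 and 86.8 CPM in NMO_Br_mono. The sum of both was 66.7, 124 and 107 CPM in Nor_Bl_mono, 92.4, 79.99 and 123 CPM in NMO_Bl_mono and 269.95, 140.4 and 116 CPM in NMO_Br_mono. For Psme2b alone the brain libraries lay above the NMO blood libraries, whereas the sums overlapped in all comparisons. The log2 fold change in brain over NMO blood was 0.73 ± 1.28 (SE) for Psme2 and 0.89 ± 0.80 for Psme2b, with adjusted p values of 1 by edgeR, and that of Psme2 was 1.23 ± 1.22 (SE) without NMO_Bl_mono replicate 3.

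Psme1 was at 219, 103 and 72.5 CPM in Nor_Bl_mono, 135, 126 and 129.99 CPM in NMO_Bl_mono and 161, 120.4 and 323 CPM in NMO_Br_mono. The NMO blood libraries were nearly equal for it (SD 0.05 on the log2(CPM + 1) scale), and both other groups were spread more widely on either side of them. Its log2 fold change was 0.63 ± 0.63 (SE) in brain over NMO blood and -0.01 ± 0.63 in NMO over normal blood. Psme4, the PA200 activator known for histone turnover, stood at 47.9, 117 and 43.6 CPM in Nor_Bl_mono, 68.3, 85.97 and 16.1 CPM in NMO_Bl_mono and 32.01, 86.5 and 84.4 CPM in NMO_Br_mono. Its groups overlapped, at 0.25 ± 1.01 (SE) in brain over NMO blood and -0.18 ± 0.80 (SE) without NMO_Bl_mono replicate 3, so its sign turned. Psmf1 encodes PI31, an inhibitor of the isolated core, and was at 6.76, 5.28 and 46.7 CPM in Nor_Bl_mono, 31.7, 24.2 and 0 CPM in NMO_Bl_mono and 10.6, 0 and 35.2 CPM in NMO_Br_mono. It was low throughout and at 0 in 1 library of each NMO group, and its log2 fold change in brain over NMO blood was -0.28 ± 2.57 (SE), or -0.85 ± 2.21 (SE) without NMO_Bl_mono replicate 3.

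The assembly factors Psmg1 to Psmg4 pair up to build the alpha ring and are not part of the finished core. Psmg1 was at 11.1, 0 and 0 CPM in Nor_Bl_mono, 9.52, 4.90 and 0 CPM in NMO_Bl_mono and 18.8, 0 and 0 CPM in NMO_Br_mono. Psmg2 was at 18.4, 12.8 and 0 CPM in Nor_Bl_mono, 6.30, 0.109 and 0 CPM in NMO_Bl_mono and 19.2, 0 and 41.5 CPM in NMO_Br_mono. Psmg3 was at 21, 10.5 and 0 CPM in Nor_Bl_mono, 3.22, 25.9 and 0 CPM in NMO_Bl_mono and 52.2, 8.27 and 0 CPM in NMO_Br_mono. All 3 were at 0 in at least 1 library of every group, and their standard errors were 2.97 to 3.65 on the log2 scale. Psmg4 was at 56.2, 32.3 and 0.102 CPM in Nor_Bl_mono, 32.5, 60.8 and 0 CPM in NMO_Bl_mono and 7.12, 67.1 and 3.18 CPM in NMO_Br_mono. It too ranged from 0 to over 60 CPM within NMO_Bl_mono, and the log2 fold changes in brain over NMO blood were 0.38 ± 3.63, 3.24 ± 3.36, 1.05 ± 3.0 and -0.27 ± 2.22 (SE) for Psmg1 to Psmg4. Without NMO_Bl_mono replicate 3, in which all 4 were at 0, those of Psmg1, Psmg3 and Psmg4 were -0.19 ± 3.86 (SE), 0.48 ± 2.85 (SE) and -0.85 ± 1.83 (SE). Among the chaperones of the 19S base, Psmd10 (gankyrin) was at 24.2, 12.6 and 0 CPM in Nor_Bl_mono, 4.76, 3.48 and 0 CPM in NMO_Bl_mono and 35.6, 13.9 and 0 CPM in NMO_Br_mono. Psmd5 was at 13.95, 0 and 0 CPM in Nor_Bl_mono, 14.4, 1.63 and 0 CPM in NMO_Bl_mono and 13.5, 0.285 and 0 CPM in NMO_Br_mono. Both were at 0 in replicate 3 of all 3 groups, as were Psmg1 and Psmg3. Psmd10 held 315 and 146 counts in brain replicates 1 and 2, and the spread between libraries was as wide as the levels themselves.

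The median SD of log2(CPM + 1) over the 48 genes was 0.67 in Nor_Bl_mono, beside 1.05 over all genes tested, 1.55 in NMO_Bl_mono, beside 1.84, and 0.83 in NMO_Br_mono, beside 1.53. The value for proteasome genes was the smaller in each group, but no test was made and genes were not matched by level. Pooled over groups the SD ran from 0.13 for Psma3, 0.28 for the lid subunit Psmd13 and 0.31 for the alpha subunit Psma7 to 2.84 for Psmg4, 2.87 for Psmc2 and 2.99 for the lid subunit Psmd6. The narrow end held subunits without a zero in any library and the wide end genes with a zero in at least 1.

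Genes that belong to or work with the proteasome but have other symbols were taken from a list drawn up for this purpose. They were 28 cap subunits, ubiquitin genes, shuttles, assembly factors and regulators. All were tested, and 0 passed an adjusted or unadjusted threshold in brain against NMO blood. Of them 21 were above 0, with a median log2 fold change of 0.36, beside 33 of 48 and 0.27 for the proteasome genes and 0.05 over all genes. In NMO against normal blood 12 of 28 were above 0 (median -0.22), and in brain against normal blood 18 of 28 (median 0.17), with 0 calls in either. Of 9 genes of class I peptide loading and its interferon control, 2 were above 0 in brain against NMO blood (median -0.33), 4 in NMO against normal blood (median -0.08) and 3 in brain against normal blood (median -0.40), and 0 passed an adjusted or unadjusted threshold. The immunoproteasome genes had 2 of 3 above 0 (median 0.28), 0 of 3 (median -0.71) and 1 of 3 (median -0.42) in the same order. Without NMO_Bl_mono replicate 3, in which all 3 were at 0, the first was 1 of 3 (median -0.29) and the second 1 of 3 (median -0.12), so the sign of the first median turned. The same step gave 20 of 28 (median 0.21) and 16 of 28 (median 0.02) for the genes that work with the proteasome, and 2 of 9 (median -0.59) and 6 of 9 (median 0.17) for class I loading, in both cases with the sign of the second median turned.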

How the data were processed

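QuantSeq 3ʹ libraries of sorted mouse monocytes were analysed, 9 in all, and the groups were taken from the sample labels. The authors mapped the reads by Bowtie2 and used bedtools to count both unique and multiple alignments, and the raw counts of each gene symbol were deposited as they stood before their own TMM and CPM normalization with edgeR. The submitters' processing notes name mm10 (GRCm38) as the build and no versions, and the annotation and strand setting are not given in the sources used here. Each file lists 23282 entries, and for the 35 symbols listed more than once (no proteasome gene) the one with the larger total was used.

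Counts were tested in R 4.3.3 with edgeR 4.0.16 (filterByExpr by group, TMM factors, glmQLFit and glmQLFTest, all 9 libraries in 1 fit), and p values were adjusted by Benjamini-Hochberg over all 10107 genes tested. The unadjusted threshold of a p under 0.05 and a 1.2-fold change is that of the study. CPM were computed with TMM-scaled library sizes, and SDs of log values used log2(CPM + 1). A gene with 3 counts or fewer in a library is called at the floor. Total counts were 7584649 to 10419647 per library, and the common dispersion was 2.87, so the spread between libraries and not the depth sets the precision of most genes. The script was tested on simulated counts.

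The genes named with values were Psmb5 to Psmb10, Psme1 to Psme4, Psmf1, Psmg1 to Psmg4, the 2 members of each other role with the lowest p in NMO_Br_mono against NMO_Bl_mono, and members at the floor in a library whose mates both reached 50 CPM. Genes outside this rule are marked. The members and lists were chosen with earlier results of these data known. Replicates are independent pools of mice by the study's methods. Libraries of a group differed beyond counting error in every pair, so none was counted as a duplicate.

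Promoter windows came from a RefSeq table of GRCm38.p6, and transcripts and gene positions from GENCODE M21. Ends shared with other genes were sought as windows of 75 bases in the last 400 bases of each transcript, and 12 of 50 members shared over 10% of their windows, while 34 shared none. Among the 12 were Psmb3 (31.9%), Psmd2 (14.5%) and Psma4 (14.3%), whose shared windows lie in genes elsewhere that the count files do not list. A gene of the class I peptide loading list and a promoter pattern are not reported here.

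The alternatives were RLE factors, library sizes alone, no filter, a stricter filter (10 counts or more in all libraries), separate fits of the 2 groups compared, a replicate block, leaving out 1 replicate at a time, DESeq2 1.42.0, limma-voom (limma 3.58.1) with sample quality weights, no Rn45s, and NMO_Bl_mono replicate 3 and NMO_Br_mono replicate 2 left out together. A comparison of NMO_Br_mono with the mean of both blood groups was chosen after seeing the data. The closing section gives their effect.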

Additional observations from a re-analysis of the deposited data

How the results depend on the processing

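No proteasome gene had an adjusted p under 0.05 in any comparison under any alternative tried. For NMO_Bl_mono against Nor_Bl_mono 0 genes passed the unadjusted threshold under all of them. Of all genes only 0.297% (replicate block) to 4.82% (limma-voom) passed it there. For NMO_Br_mono against NMO_Bl_mono, where 0 passed in the edgeR fit, 1 gene passed as higher with no filter (Psmd1), with at least 10 counts in every library (Psmc4), in limma-voom (Psmd1), and against the mean of both blood groups (Psmd3), the comparison added after seeing the data. In the same comparison 1 gene passed as lower with library sizes alone (Psma4), with at least 10 counts in every library (Psma4), in DESeq2 (Psme3) and in limma-voom (Psme3). For NMO_Br_mono against Nor_Bl_mono, where 1 gene passed as higher, 0 passed with no filter, 2 with at least 10 counts in every library (Psmc5 and Psmd3), 2 with only the 2 groups compared (Psmd1 and Psmd3), 2 in DESeq2 (Psmc5 and Psmd3), 4 in limma-voom (Psmc1, Psmd1, Psmd2 and Psmd3) and 5 with NMO_Bl_mono replicate 3 and NMO_Br_mono replicate 2 both left out (Psmb3, Psmd1, Psmd2, Psmd3 and Psmd7), and 1 passed as lower in limma-voom (Psme3). Under the same settings 4.85% to 12.6% of all genes passed in either direction in NMO_Br_mono against NMO_Bl_mono (6.89% in the added comparison). In NMO_Br_mono against Nor_Bl_mono 4.85% to 11.7% did. The share there was 11.2% in limma-voom and 9.61% with both libraries left out, where the 5 genes of 48 stand near it. With at least 10 counts in every library only 22 members were tested, and Psmd1, Psme3 and the 3 immunoproteasome genes were not among them. With only the 2 groups compared 46 were tested in NMO_Br_mono against Nor_Bl_mono. The cause of the moves between settings was not tested.

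With each replicate left out in turn, the number of genes higher in NMO_Br_mono than in NMO_Bl_mono ranged from 0 to 1 (Psmd1, without NMO_Bl_mono replicate 3) and of those lower from 0 to 2 (Psma4 and Psme3, without NMO_Br_mono replicate 1). Against Nor_Bl_mono it ranged from 0 to 2 for higher (Psmd1 and Psmd3, without NMO_Bl_mono replicate 3) and from 0 to 1 for lower (Psme3, without NMO_Br_mono replicate 1). Of all genes 6.25% and 5.5% passed in the first comparison without these libraries in turn, and 8.18% and 5.95% in the second. The labels give no meaning to a replicate number shared by groups, and deviations of libraries with the same number correlated at -0.0102 to 0.116. Those of libraries with unlike numbers correlated at -0.0957 to 0.0301. Replicate 1 of every group did share traits of the library. It had the most genes detected of its group (10669 in Nor_Bl_mono, 11556 in NMO_Bl_mono and 9875 in NMO_Br_mono). Its part of counts on Rn45s was also the largest of its group (43.6%, 42.2% and 39.3% in the same order). What the replicate number stands for was not tested. With the number as a replicate block, 0 genes passed as higher in NMO_Br_mono against Nor_Bl_mono, the median log2 fold change of NMO_Br_mono over NMO_Bl_mono was 0.44, and 0 genes had an adjusted call.

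The median over the tested proteasome genes ran from -0.06 (limma-voom) to 0.57 (without NMO_Bl_mono replicate 2) for NMO_Br_mono over NMO_Bl_mono, and from -0.35 (without NMO_Bl_mono replicate 2) to 0.29 (limma-voom) for NMO_Bl_mono over Nor_Bl_mono, so its sign depended on the setting in both. The median of all genes moved too. In the first of these it was -0.65 in limma-voom and 0.28 without NMO_Bl_mono replicate 2. In the second it was -0.39 without NMO_Bl_mono replicate 2 and 0.18 in limma-voom. Over all genes, DESeq2 made 336 adjusted calls in NMO_Br_mono against NMO_Bl_mono and 69 in NMO_Bl_mono against Nor_Bl_mono, where edgeR made 25 and 0. Of 579 values of named genes under alternatives, 34 turned their sign, none with an unadjusted p under 0.05. The limit on every value is the spread between 3 libraries a group, with 24 of 50 members at 3 counts or fewer in NMO_Bl_mono replicate 3.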
